A study of Arabidopsis thaliana with 18 samples.

Results

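Leaf blades of wild-type Arabidopsis thaliana that had received a pulse of far-red light and then 2 h of darkness (FRD) were set against blades that had stayed in white light (WL) for the same 2 h. The 2 groups were taken by their array titles, 3 arrays each, and so hold 6 of the 18 arrays of the series. All 22746 probe sets on the array other than control probe sets were compared. The plants carried no mutation or transgene, were 19 days old and had grown at 22 °C in continuous white light before the treatment. RNA came from the blades of rosette leaves 3 and 4, and the 3 replicates of each group are independent biological ones by the series description. The other 12 arrays hold blades kept in darkness for 2 h without a pulse (D) and petioles, the stalks of the same leaves, under FRD, D and WL.

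Far-red light turns phytochromes, the red and far-red photoreceptors of plants, back into their inactive form, and darkness then keeps them there. This relieves phytochrome-interacting factors from degradation, and they switch on genes of auxin synthesis and shade avoidance, the growth response of leaves shaded by neighbours. Darkness also ends photosynthesis, so that leaf cells draw on starch, amino acids and their own proteins for energy. FRD against WL holds both the pulse and the loss of light, and the values of D blades are set beside it where they bear on a gene.

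Each probe set's value is a ratio to its own median over the 3 WL arrays of that tissue, so a change can be read but the level of a gene cannot. Array medians lay between 0.946 and 1.016 in FRD blades and were 1 in WL blades. The SD of log2 ratios over all probe sets was 1.01 to 1.03 in FRD arrays and 0.622 to 0.71 in WL arrays. It was 0.998 to 1.05 in D blades, and division by the WL median itself narrows the WL arrays and draws their medians towards 1. The 25S ribosomal RNA control stood at 0.507, 0.0524 and 0.456 log2 in FRD blades and at 0.0813, 0 and -0.329 in WL blades, with overlapping arrays. The 3' minus 5' log2 difference of the ubiquitin control averaged 0.114 ± 0.105 in FRD blades and 0.0591 ± 0.0513 in WL blades (SD, n = 3 each). That of the actin control averaged 0.201 ± 0.227 in FRD and 0.00758 ± 0.00693 in WL blades, and that of the GAPDH control 0.0612 ± 0.0396 in FRD and 0.171 ± 0.289 in WL blades. The part of these differences in the results was not tested. The tissue label could not be checked by the level of marker genes. In bulk tissue, fewer cells of a type and less RNA per cell cannot be told apart.

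Of the 22746 probe sets, 2537 (11.2%) were called at a Benjamini-Hochberg adjusted p under 0.05 in limma, a linear model of log2 ratios with 1 mean per group over all 18 arrays. Of these, 1458 (6.41%) were higher and 1079 (4.74%) lower in FRD blades, and a change of at least 2-fold was called for 582 (2.56%) and 420 (1.85%). The median change was 0.87 log2 units among the higher calls and -0.85 among the lower ones, against -0.03 over all probe sets tested. The arrays of both groups did not overlap in 6395 probe sets (28.1%), among them 2517 of those called. Genes named by rule were taken only from calls without overlap, so a gap between their groups is no further evidence. Only 187 calls carry a gene symbol, 101 higher and 86 lower, and 1115 name a gene by its locus code alone. Unnamed probe sets rose by up to 8.08 and fell by up to 4.82 log2 units. The share of a gene list that was called is to be read against the 11.2% of all probe sets.

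Without WL replicate 1 the count was 1690, with quantile normalization 187, and with the 6 compared arrays alone 631. The share of higher calls was 57.5%, against 72.2% with quantile normalization and 14.7% with the 75th percentiles of the arrays aligned, which moves the median change of all genes by -0.31. Changes are reported without that shift. Each probe set was divided by its own WL median, which narrows the WL arrays. The 75th percentiles were 0.0621 to 0.13 log2 in WL blades, against 0.344 to 0.449 in FRD blades. Quantile normalization and the alignment act on that difference. The part of the deposited scale in their counts was not tested. With quantile normalization 14 of the 38 genes named by rule were called, and they are GH3.3, IAA29, IAA30, WES1, HAT2, WRKY22, UGT72E1, ATPMEPCRB, AT2G04050, AT3G23550, AT4G17470, GI, AOP1 and BGLU40. Of the 60 further called list members, BIM1, UGT85A4 and AKINBETA1 were called with quantile normalization. No gene named by rule changed its sign under any setting tried.

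**Figure D1:**
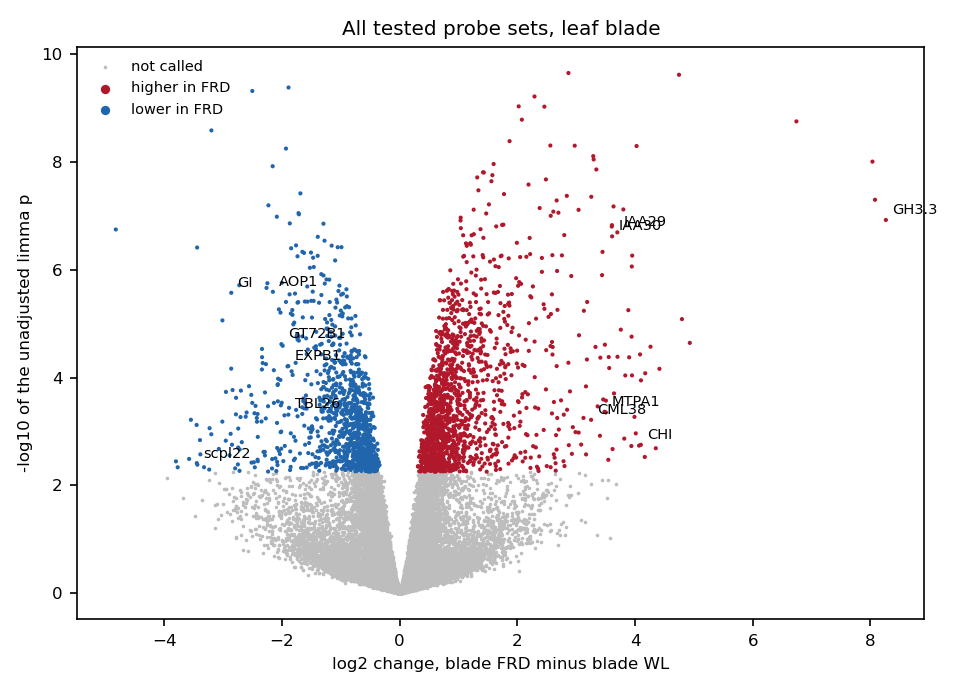
Change of every tested probe set in leaf blades (x axis, log2 change, FRD minus WL) against the negative log10 of its unadjusted limma p (y axis). The 1458 probe sets called higher are red, the 1079 called lower are blue and the rest grey, and GH3.3 lies at 8.26 on the x axis.

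Early auxin genes were among the largest rises of genes with a symbol, with GH3.3 first by size, the putative chitinase gene CHI second, and IAA29 and IAA30 after it. GH3.3 (AT2G23170), which couples free auxin to amino acids and so inactivates it, had ratios of 326, 452 and 929.5 in FRD blades, against 0.581, 1 and 8.12 in WL blades. Even the lowest FRD array lay far above the highest WL array, although the WL arrays themselves were widely spread. The change was 8.26 ± 0.82 log2 units, or 307-fold (SE, limma adjusted p = 5.26e-05, n = 3 each). It was 7.50 without WL replicate 1 and 9.40 without WL replicate 3. Its call was lost when the variance was modelled as a trend (adjusted p = 0.0801). That trend runs over the mean log2 ratio of the arrays and not over signal intensity, so a large change itself shifts a gene along it. WES1 (AT4G27260), also called GH3.5 and an enzyme of the same kind, had ratios of 5.78, 10.2 and 8.93 in FRD blades and of 0.838, 1.28 and 1 in WL blades. All 3 FRD arrays stood well above the WL arrays, and WES1 rose by 2.98 ± 0.23 (adjusted p = 8.13e-06). Of the 5 GH3 genes measured these 2 were called higher and none lower, 40% against 11.2% of all probe sets. The list median was 1.31. GH3.1 stood at 1.31 ± 1.18 and GH3.17 at 1.09 ± 0.49, and neither passed the test.

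Aux/IAA proteins repress auxin response genes and are themselves made in response to auxin. IAA29 (AT4G32280) had ratios of 11.2, 14.85 and 12.6 in FRD blades, against 1, 1.02 and 0.939 in WL blades. Both groups were tight and far apart, and the rise was 3.70 ± 0.38 log2 units, or 13-fold (adjusted p = 7.25e-05). IAA30 (AT3G62100) had ratios of 11.7, 24.15 and 13.2 in FRD blades and of 0.753, 1 and 2.72 in WL blades. The rise was 3.61 ± 0.38 (adjusted p = 7.96e-05). The list median was 0.36 with 28.6% called, and the other 5 of the 7 Aux/IAA genes measured did not pass the test. Among them IAA20 stood at 1.25 ± 0.78 and IAA31 at -2.0 ± 1.15, with 1 FRD array of IAA31 at 0.0526 and the others within the range of the WL arrays.

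YUC2 (AT4G13260), a flavin monooxygenase of the last step of auxin synthesis, rose in FRD blades. Its ratios were 2.53, 3.11 and 3.21 in FRD blades, against 1, 0.571 and 1.07 in WL blades. The groups did not overlap, and the change was 1.79 ± 0.26 (adjusted p = 0.00074). With quantile normalization the call was lost. On the list of auxin synthesis and transport the 5 genes measured were YUC2, YUC4, YUC6, YUC11 and the auxin conjugation gene IAGLU. No transport gene was among them, and YUC2 was the single one called (20%). Its relative YUC6 stood at -2.05 ± 0.85, with ratios of 0.727, 0.197 and 0.178 in FRD blades and 1, 0.912 and 2 in WL blades, and did not pass the test (adjusted p = 0.152).

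Of the 4 shade and phytochrome genes measured, 3 rose and none fell (75% called, against 11.2% of all probe sets). BIM1, 1 of the 3, also belongs to the list of 3 brassinosteroid genes, of which it was the single call (33.3%). HAT2 (AT5G47370), a homeodomain-leucine zipper factor of the class that responds to shade, had ratios of 5, 4.91 and 5.53 in FRD blades, against 0.973, 1 and 1.25 in WL blades. Replicates of each group lay close together with a wide gap between the groups, and HAT2 rose by 2.27 ± 0.29 (4.81-fold, adjusted p = 0.000318). FHL (AT5G02200), which helps to carry phytochrome A into the nucleus, had ratios of 2.88, 2.02 and 5.21 in FRD blades and of 0.684, 1.18 and 1 in WL blades. FRD replicate 3 was the highest array, none overlapped, and FHL rose by 1.74 ± 0.36 (adjusted p = 0.00656). BIM1 (AT5G08130), a basic helix-loop-helix factor that acts with the brassinosteroid regulator BES1, had ratios of 2.39, 2.05 and 2.62 in FRD blades, against 1.09, 1 and 0.971 in WL blades. The rise was 1.2 ± 0.13 with no overlap (adjusted p = 9.7e-05). HYH, a light-signalling bZIP factor related to HY5, stood at -0.50 ± 0.29 and did not pass.

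Genes of other growth hormones were few on the list of symbols. GID1A (AT3G05120), a gibberellin receptor, had ratios of 1.63, 1.57 and 2.34 in FRD blades, against 0.826, 1 and 1.14 in WL blades, and rose by 0.89 ± 0.20 (adjusted p = 0.0105). Without WL replicate 1 its call was lost at 0.77 (adjusted p = 0.0517). SPY (AT3G11540), an O-fucosyltransferase that restrains gibberellin signalling, rose by 0.75 ± 0.16 (adjusted p = 0.00836). Both are among 5 gibberellin genes measured (40% called), of which none was called lower. GID1B stood at 2.02 ± 0.64 (adjusted p = 0.0604) and GID1C at -0.38 ± 0.30. With the 75th percentiles aligned neither GID1A nor SPY was called. EIN3 (AT3G20770), the transcription factor that carries out ethylene responses, had ratios of 1.69, 1.56 and 1.71 in FRD blades and of 1, 1.04 and 0.928 in WL blades. It rose by 0.74 ± 0.09 without overlap (adjusted p = 0.000364). EXO, a growth gene induced by brassinosteroids, had ratios of 8.45, 3.82 and 7.24 in FRD blades and of 1, 0.95 and 1.84 in WL blades, a difference of 2.35 ± 0.86 that did not pass (adjusted p = 0.104).

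**Figure D2:**
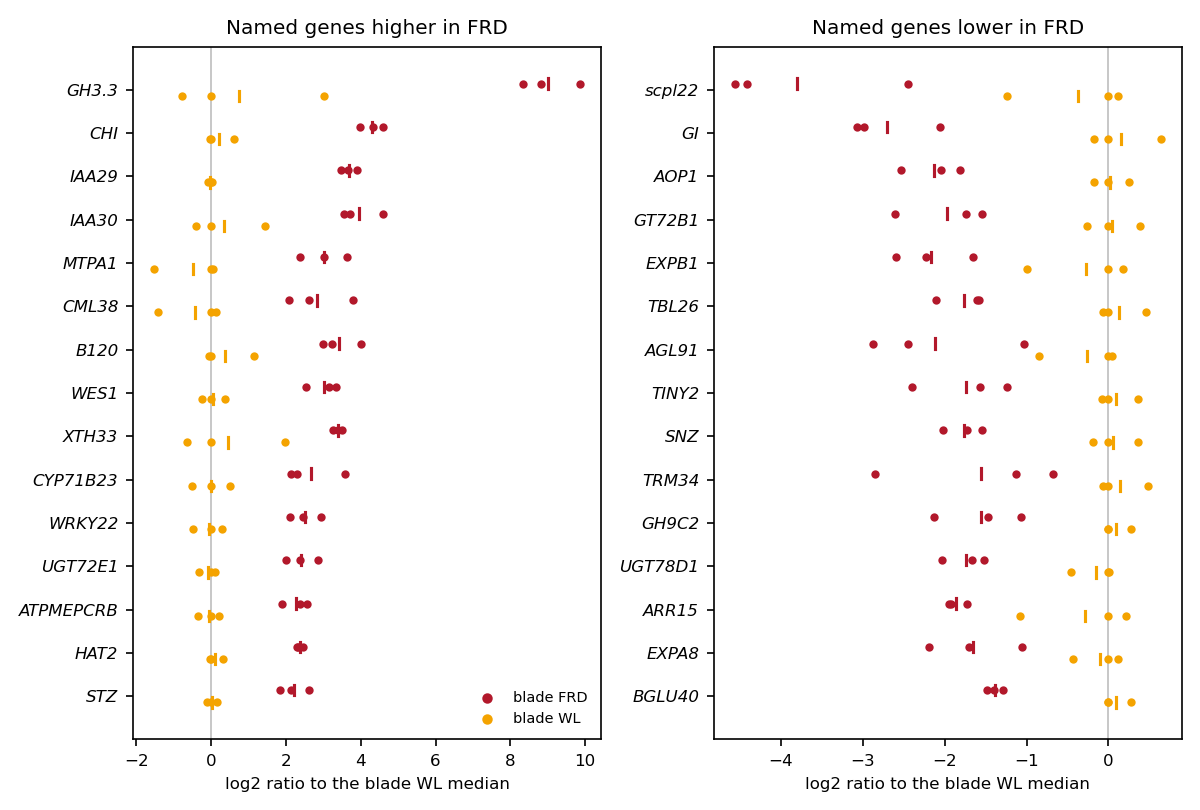
Log2 ratio to the blade WL median (x axis) of each array for the 15 rises and 15 falls named by rule, with FRD arrays in red, WL arrays in orange and short bars at group means of 3 arrays. The rule took only genes without overlap between groups, so none is seen here, and GH3.3 has the widest gap.

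Wall genes moved both ways. XTH33 (AT1G10550), a xyloglucan endotransglucosylase/hydrolase that cuts and rejoins hemicellulose chains, had ratios of 9.64, 11.3 and 10.5 in FRD blades and of 0.64, 1 and 3.93 in WL blades. The FRD arrays were alike, the WL arrays were not, and XTH33 rose by 2.94 ± 0.69 (adjusted p = 0.0137). Its call was lost without WL replicate 1 or 2, with changes of 2.40 and 2.72 (adjusted p up to 0.0663). EXPB1 (AT2G20750), a beta-expansin that loosens walls, had ratios of 0.213, 0.318 and 0.165 in FRD blades, against 1.14, 1 and 0.502 in WL blades, and fell by 1.89 ± 0.33 (adjusted p = 0.00241). EXPA8 (AT2G40610), an alpha-expansin, had ratios of 0.308, 0.482 and 0.218 in FRD blades, against 1.08, 1 and 0.739 in WL blades, and fell by 1.54 ± 0.36 (adjusted p = 0.0143). For both genes every FRD array was below every WL array, as the naming rule requires. The EXPA8 call was lost without FRD replicate 3 or WL replicate 1 or 2, at -1.49 to -1.27 (adjusted p up to 0.0636). It was also lost with ratios floored at their 10th percentile, 0.553, at -0.75 (adjusted p = 0.134). All FRD ratios of EXPA8 lie below that floor, which limits how large a fall can be, so the smaller change follows from the setting.

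Of the 28 expansin and xyloglucan genes measured, 1 was called higher and 5 lower (21.4% called), with a list median of -0.01. The other 3 falls were those of EXPB2 at -1.12 ± 0.32, EXPA15 at -0.97 ± 0.27 and XTH32 at -0.95 ± 0.19. EXPB2 was called in none of the fits without 1 array other than that without WL replicate 3, and EXPA15 was lost without FRD replicate 1 or 3 or WL replicate 1 or 2 (adjusted p up to 0.154 and 0.136). XTH32 (adjusted p = 0.00539) stayed called in all 6 such fits.

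Among 52 genes of cellulose, pectin and wall acetylation, 3 rose and 4 fell, with a median of -0.10. These are 13.5% of the list, against 11.2% of all probe sets, and with the 75th percentiles aligned 2 were higher and 9 lower. ATPMEPCRB (AT4G02330), a pectin methylesterase, had ratios of 5.89, 3.69 and 5.16 in FRD blades and of 1.14, 0.789 and 1 in WL blades, and rose by 2.32 ± 0.33 (adjusted p = 0.000675). GH9C2 (AT1G64390), an endoglucanase, had ratios of 0.229, 0.478 and 0.36 in FRD blades and of 1.21, 1 and 0.999 in WL blades, and fell by 1.65 ± 0.23 (adjusted p = 0.00066). In each of these genes the 2 groups were apart, as the naming rule requires. The TRICHOME BIREFRINGENCE-LIKE proteins, a family that acetylates wall polysaccharides, split: TBL37 rose by 1.91 ± 0.25 and TBL32 by 0.65 ± 0.19, while TBL26 fell by 1.89 ± 0.41 and TBL35 by 0.45 ± 0.12. CSLC5, of the family that builds the xyloglucan backbone, fell by 0.67 ± 0.18. On leaving out 1 array, TBL32 stayed called without FRD replicate 2 or WL replicate 3 alone, TBL35 without WL replicate 2 alone and CSLC5 without FRD replicate 3 alone (adjusted p up to 0.151 in the other fits). TBL32 was not called with the 75th percentiles aligned either (0.34, adjusted p = 0.275).

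The clock gene GI fell most among transcriptional and timing regulators. GI (AT1G22770), which acts in the circadian clock and in photoperiodic flowering, had ratios of 0.119, 0.24 and 0.126 in FRD blades, against 1.56, 1 and 0.885 in WL blades. Every FRD array was far below the lowest WL array, and GI fell by 2.86 ± 0.37 (adjusted p = 0.000373). SNZ (AT2G39250), an AP2-type repressor of flowering, fell to 0.246, 0.344 and 0.303 in FRD blades, against 1, 0.876 and 1.28 in WL blades, a change of -1.82 ± 0.33 (adjusted p = 0.00312). TINY2 (AT5G11590), of the same large AP2/ERF class, had ratios of 0.189, 0.422 and 0.336 in FRD blades and of 1.29, 1 and 0.943 in WL blades, a change of -1.83 ± 0.33 (adjusted p = 0.00279). For both, the groups were separate, as the naming rule requires. GI was the single clock gene with a named probe set.

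Further regulators fell with less certainty. ARR15 (AT1G74890), a response regulator that damps cytokinin signalling, had ratios of 0.264, 0.259 and 0.301 in FRD blades, against 1.16, 1 and 0.473 in WL blades, a change of -1.58 ± 0.47 (adjusted p = 0.044). Of the 6 fits that left out 1 array, the ARR15 call remained in that without WL replicate 3 alone (adjusted p up to 0.158 in the others, changes of -1.65 to -1.33). The MADS-box gene AGL91 stood at 0.136, 0.489 and 0.184 in FRD blades and at 1, 0.557 and 1.03 in WL blades, a change of -1.85 ± 0.54 (adjusted p = 0.0434). Its call remained without FRD replicate 2 alone (changes of -2.14 to -1.47 and adjusted p up to 0.162 in the others). With ratios floored at their 10th percentile ARR15 stood at -0.64 and AGL91 at -0.59 (adjusted p = 0.223 and 0.461). With a pseudocount they stood at -0.76 and -0.79 (adjusted p = 0.0684 and 0.187). Both settings limit how large a fall can be, and all FRD ratios of these genes lie below the floor. So does the ratio of ARR15 in WL replicate 3 (0.473). AGL91 was the single call among 40 MADS-box genes, whose median was -0.28. TRM34 (AT3G24630) fell by 1.69 ± 0.46 (adjusted p = 0.0297), a call lost without FRD replicate 2 or any single WL array (changes of -1.80 to -1.05, adjusted p up to 0.107).

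CML38 and B120, genes of calcium and receptor kinase signalling, rose. CML38 (AT1G76650), a calmodulin-like calcium sensor, had ratios of 14, 4.2 and 6.09 in FRD blades, against 1.1, 0.374 and 1 in WL blades. FRD replicate 1 was the highest, and CML38 rose by 3.25 ± 0.73 (adjusted p = 0.0109). The call was lost without FRD replicate 1 or WL replicate 2, at 2.76 and 2.77 (adjusted p up to 0.0533). B120 (AT4G21390), a receptor-like kinase with a lectin domain, had ratios of 16.1, 7.97 and 9.36 in FRD blades and of 0.956, 1 and 2.21 in WL blades. Its rise was 3.05 ± 0.47 with a wide gap between groups (adjusted p = 0.00108). In the list of 25 calcium, touch and wounding genes, CML38 and the calmodulin-binding IQD22 (1.62 ± 0.37, adjusted p = 0.0127) were called higher and the glutamate receptor-like channel GLR3.5 (-0.92 ± 0.28, adjusted p = 0.047) lower, with a median of -0.27. That share of 12% is close to the 11.2% of all probe sets, and with the 75th percentiles aligned 2 members were higher and 8 lower. IQD22 was lost without WL replicate 2 (1.51, adjusted p = 0.0505), and GLR3.5 without FRD replicate 1 or 2 or WL replicate 1 or 3 (adjusted p up to 0.156).

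The list of stress regulators holds 17 genes, of which 9 are PUB genes for U-box ubiquitin ligases and 8 encode WRKY factors, the zinc finger protein STZ or the kinase BIK1. Of the 17, 5 were called higher and none lower (29.4%, against 11.2% of all probe sets), with a median of 0.61. In a split by family that was not planned, all 5 were among the 8 WRKY, zinc finger and kinase genes, with a median of 1.18. None of the 9 PUB genes was called, with a median of 0.18. WRKY22 (AT4G01250), a factor of defence and of senescence in darkness, had ratios of 7.63, 5.49 and 4.3 in FRD blades and of 1.22, 1 and 0.71 in WL blades. The groups lay far apart, and the rise was 2.57 ± 0.25 (adjusted p = 4.68e-05). STZ (AT1G27730), a zinc finger repressor linked to salt tolerance, had ratios of 6.13, 3.6 and 4.42 in FRD blades and of 1.11, 1 and 0.917 in WL blades, a rise of 2.20 ± 0.36 (adjusted p = 0.00157). WRKY53, which promotes the senescence of leaves, rose by 2.04 ± 0.47 (adjusted p = 0.0132), WRKY47 by 1.66 ± 0.33 and BIK1, a kinase that relays immune receptor signals, by 0.70 ± 0.20. Without FRD replicate 3, WRKY53 was lost at 1.79 (adjusted p = 0.0564), and BIK1 was lost in all 6 fits without 1 array except that without FRD replicate 2 (adjusted p up to 0.138), and with the 75th percentiles aligned (0.40, adjusted p = 0.197). CHI (AT2G43570), here the symbol of a putative chitinase, had ratios of 20.2, 24.1 and 15.6 in FRD blades and of 0.986, 1 and 1.53 in WL blades. It rose by 4.10 ± 1.06 (adjusted p = 0.0233), and in the fits without 1 array the call remained without WL replicate 3 alone (3.95 to 4.26 and adjusted p up to 0.0721 in the others).

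Of 9 jasmonate genes 1 was called (11.1%, against 11.2% of all probe sets). This was OPCL1, which activates jasmonate precursors for beta-oxidation, at 1.01 ± 0.28 (adjusted p = 0.0318). It was lost without any single array but FRD replicate 2 (adjusted p up to 0.128), and with the 75th percentiles aligned (0.70, adjusted p = 0.101). PDF1.2b, a defensin gene induced by jasmonate and ethylene, had ratios of 3.85, 3.86 and 3.56 in FRD blades and of 0.416, 1.51 and 1 in WL blades. That difference of 2.13 ± 0.73 did not pass (adjusted p = 0.081). MTPA1 (AT3G61940), of the metal tolerance family of cation transporters, had ratios of 12.4, 5.17 and 8.14 in FRD blades and of 1.03, 0.347 and 1 in WL blades, and rose by 3.50 ± 0.76 (adjusted p = 0.00893). On the list of abscisic acid and drought the 7 genes measured were COR15A, COR15B, COR27, COR47, HVA22C, LTI30 and RD2. None was called, with changes of -1.16 to 0.21, and no gene of abscisic acid synthesis or perception was among them.

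Of 16 genes of energy starvation and amino acid breakdown, 3 rose and none fell (18.8% called, against 11.2% of all probe sets). AKINBETA1 (AT5G21170), a regulatory subunit of SnRK1, the kinase that senses low energy, had ratios of 3.6, 3.6 and 2 in FRD blades, against 1.02, 1 and 0.602 in WL blades. Replicate 3 was the lowest in each group, the groups did not overlap, and AKINBETA1 rose by 1.80 ± 0.30 (adjusted p = 0.00172). Enzymes of leucine breakdown rose too: MCCA, a subunit of methylcrotonyl-CoA carboxylase, by 1.09 ± 0.28 (adjusted p = 0.0238) and IVD, isovaleryl-CoA dehydrogenase, by 1.07 ± 0.21 (adjusted p = 0.00523). MCCA was lost without FRD replicate 1 or 2 or WL replicate 3, at 0.90 to 0.96 (adjusted p up to 0.0958). The list median was 0.23 and turned to -0.08 with the 75th percentiles aligned, a setting in which MCCA was not called.

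Of 10 autophagy genes 2 rose (20%), both of the ATG8 family whose proteins coat the membrane that engulfs cell contents. ATG8E (AT2G45170) had ratios of 2.91, 2.11 and 1.77 in FRD blades, against 1, 1.18 and 0.843 in WL blades, and rose by 1.15 ± 0.25 (adjusted p = 0.00876). ATG8F rose by 0.57 ± 0.13 (adjusted p = 0.00973). Positive values were found for 9 of the 10, with a median of 0.29. With the 75th percentiles aligned the median was -0.02 and ATG8F was not called.

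Of 23 genes of starch and sugar metabolism, 4 fell and none was called higher (17.4%, against 11.2% of all probe sets), with a median of -0.37. DPE1, a plastid enzyme that rearranges maltotriose from starch, had ratios of 0.525, 0.546 and 0.509 in FRD blades and of 0.831, 1 and 1.22 in WL blades, and fell by 0.93 ± 0.19 (adjusted p = 0.00623). PWD, which phosphorylates starch before it is broken down, fell by 0.84 ± 0.18 (adjusted p = 0.00694), and the sugar transporter relatives SFP1 and SFP2 fell by 0.86 ± 0.23 and 1.24 ± 0.34. SFP1 was lost without FRD replicate 2 or 3 or WL replicate 3, and SFP2 without FRD replicate 3 or any single WL array (adjusted p up to 0.0943 and 0.117). SWEET10, a sugar exporter, stood at 2.00 ± 0.85 with ratios of 5.65, 3.46 and 1.9 in FRD blades and of 0.555, 1 and 1.05 in WL blades, and did not pass (adjusted p = 0.166). SIR (AT5G04590), sulfite reductase, was the single call among 3 genes of nitrogen and sulfur assimilation and rose by 0.98 ± 0.15 (adjusted p = 0.00126).

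The 8 nuclear genes of light harvesting and photosystems with a named probe set, counted with RCA for rubisco activase, were all slightly negative, between -0.28 for LHCB4.3, a minor antenna protein, and -0.09, and none passed the test. None of the 69 plastid-encoded genes passed, with a median of -0.03 equal to that of all probe sets. Their extremes were -0.66 and 1.01, the higher one that of ndhF, a subunit of the plastid NADH dehydrogenase-like complex, with ratios of 1.02, 1.57 and 2.13 in FRD blades and of 0.289, 1 and 1.44 in WL blades. Among 9 genes of chlorophyll and haem synthesis, changes ran from -0.68 for HEME2 to 1.23 for HEMA3, with a median of -0.39 and no call. With the 75th percentiles aligned 5 of the 9 chlorophyll and haem genes, 2 of the 8 antenna and photosystem genes and 3 of the 69 plastid-encoded genes were called lower and none higher. Standard errors of the 8 antenna and photosystem genes were 0.15 to 0.26 log2 units, and a p that missed the threshold does not show that they did not change.

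AOP1, BGLU40 and UGT78D1, genes of glucosinolate, beta-glucoside and flavonoid metabolism, fell. AOP1 (AT4G03070), a dioxygenase of the family that modifies glucosinolate side chains, had ratios of 0.284, 0.243 and 0.173 in FRD blades, against 1, 0.884 and 1.19 in WL blades. The gap between groups was wide, and AOP1 fell by 2.15 ± 0.28 (adjusted p = 0.000364). The beta-glucosidase BGLU40 (AT1G26560) had ratios of 0.41, 0.359 and 0.381 in FRD blades and of 1, 0.999 and 1.21 in WL blades, and fell by 1.48 ± 0.19 (adjusted p = 0.000364). BGLU44 fell by 1.03 ± 0.17 and BGLU25 by 0.58 ± 0.17. On the list of 30 glucosinolate and endoplasmic reticulum body genes 4 thus fell and none was called higher, with a median of -0.05. That list took every BGLU symbol, whatever the role of the enzyme, so its count does not describe glucosinolate genes alone. The share of 13.3% is close to that of all probe sets (11.2%), and 7 were lower with the 75th percentiles aligned. BGLU25 was lost without any single array but FRD replicate 1 (adjusted p up to 0.184). UGT78D1 (AT1G30530), which adds rhamnose to flavonols, had ratios of 0.244, 0.348 and 0.316 in FRD blades and of 1, 1 and 0.73 in WL blades, and fell by 1.59 ± 0.32 (adjusted p = 0.00561). CHIL, a chalcone isomerase-like protein, fell by 1.39 ± 0.37 (adjusted p = 0.0279). It was the second call among 7 flavonoid genes (28.6% called), whose median was -0.45. The CHIL call was lost without FRD replicate 1 or 3 or WL replicate 1 or 2 (adjusted p up to 0.117).

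Of 47 UGT genes, which attach sugars to small molecules, 3 were called higher and 3 lower, with a median of 0.02. This is 12.8% of the list, close to the 11.2% of all probe sets, and with the 75th percentiles aligned 3 were higher and 10 lower. UGT72E1 (AT3G50740), which glucosylates lignin precursors, had ratios of 5.19, 4 and 7.26 in FRD blades and of 1.06, 1 and 0.797 in WL blades, and rose by 2.49 ± 0.41 (adjusted p = 0.00156). UGT85A4 rose by 2.01 ± 0.25 and UGT71C5 by 0.99 ± 0.21, while UGT76E11 fell by 1.27 ± 0.27 and UGT80B1, a sterol glucosyltransferase, by 0.62 ± 0.16. The list took only symbols that begin with UGT, so its 3 falls leave out GT72B1 (AT4G01070), UDP-glucose-dependent glucosyltransferase 72 B1. GT72B1 had ratios of 0.342, 0.164 and 0.299 in FRD blades and of 1, 0.832 and 1.31 in WL blades, and fell by 2.01 ± 0.32 (adjusted p = 0.00133). All calls among 24 cytochromes P450 (16.7% called) belonged to the CYP71B subfamily. CYP71B23 rose by 2.68 ± 0.60 and CYP71B22 by 1.47 ± 0.22, and CYP71B26 fell by 1.25 ± 0.37 and CYP71B28 by 0.75 ± 0.22. The falls of UGT80B1, CYP71B26 and CYP71B28 were each lost in 4 or 5 of the fits without 1 array (adjusted p up to 0.148), and remained called without WL replicate 1 or 2 for UGT80B1, without FRD replicate 3 for CYP71B26 and without WL replicate 1 for CYP71B28.

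The serine carboxypeptidase-like gene scpl22 (AT2G24000) showed the largest fall among genes with a symbol. Its ratios were 0.183, 0.0468 and 0.0424 in FRD blades, against 1, 1.08 and 0.425 in WL blades, a change of -3.44 ± 1.0 (adjusted p = 0.0408). The call remained without FRD replicate 1 but was lost without any other single array, at -3.87 to -3.06 (adjusted p up to 0.129). With ratios floored at their 10th percentile the change was -0.61 (adjusted p = 0.696), and with a pseudocount -1.08 (adjusted p = 0.362). Both settings limit how large a fall can be. The floor gives all FRD arrays of scpl22 and WL replicate 3 (0.425) the same value, so the groups are no longer apart. The part of these limits in the smaller changes was not tested.

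None of 7 cell cycle and histone genes, 13 leaf development regulators or 9 subtilases was called. NGA1 and AGO7, which shape leaf growth, stood at -1.31 ± 0.44 and -1.86 ± 0.60 with adjusted p = 0.0767 and 0.0637. Of markers of other cell types, 3 of guard cells and trichomes lay between -1.42 for SPCH and 0.41 and 2 of root and meristem at -0.34, and none was called. Their part in the other results was not tested.

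**Figure D3:**
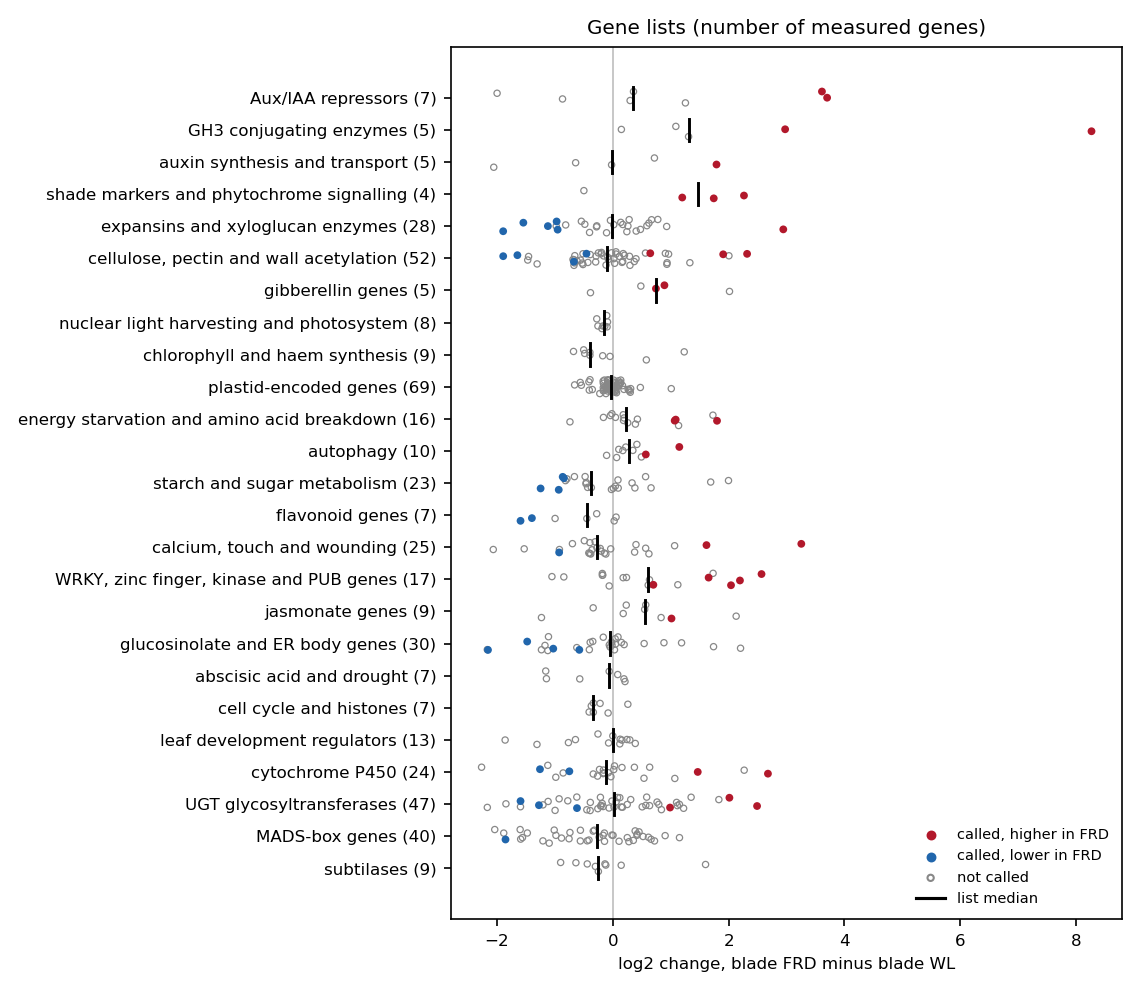
Log2 change in blades, FRD minus WL (x axis), of every measured member of 25 gene lists with 4 or more members (rows, number of members in parentheses). Red and blue points passed the test as higher and lower, open points did not, and black bars are list medians, which in the lists drawn run from -0.45 for flavonoid genes to 1.47 for shade markers and phytochrome signalling.

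Among genes known by locus code alone, called rises reached 4.80 and called falls -3.80. AT2G04050 had ratios of 19.9, 27.3 and 33 in FRD blades, against 1, 0.732 and 1.14 in WL blades, and rose by 4.80 ± 0.69 (adjusted p = 0.00068). AT3G23550 rose by 4.42 ± 0.78 (adjusted p = 0.00262) with ratios of 18.7, 7.32 and 42.6 in FRD blades and of 0.589, 1.02 and 1 in WL blades. Its call was lost with a variance trend over mean log2 ratios (adjusted p = 0.503). AT4G09860 rose by 4.35 ± 1.14 and AT4G17470 by 4.26 ± 0.69 (adjusted p = 0.0256 and 0.00142). AT4G09860 was called without WL replicate 3 but in no other fit without 1 array (3.87 to 4.59, adjusted p up to 0.0978).

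AT2G27420 had ratios of 0.12, 0.0958 and 0.0721 in FRD blades, against 1.12, 0.963 and 1 in WL blades, and fell by 3.45 ± 0.80 (adjusted p = 0.0128). It passed in all 6 fits without 1 array but not with a variance trend over mean log2 ratios (adjusted p = 0.722). AT5G34950 stood at -3.80 ± 1.08, AT3G61920 at -3.58 ± 1.0 and AT2G22180 at -3.55 ± 0.80 (adjusted p = 0.0372, 0.0347 and 0.0109). AT5G34950 was lost without FRD replicate 1 or 3 or WL replicate 2 or 3, AT3G61920 without any single array but FRD replicate 1, and AT2G22180 without FRD replicate 1 or WL replicate 1 (adjusted p up to 0.147, 0.132 and 0.053). With ratios floored at their 10th percentile AT5G34950 stood at -1.17 and AT2G22180 at -0.73 (adjusted p = 0.376 and 0.372). With a pseudocount they stood at -1.47 and -1.14 (adjusted p = 0.134 and 0.0891). Both settings limit how large a fall can be, and all FRD ratios of these genes lie below the floor. So do WL replicate 1 of AT5G34950 (0.425) and WL replicate 2 of AT2G22180 (0.282).

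Blades kept in darkness without a pulse allow FRD against WL to be read in steps. FRD against WL is the sum of FRD against D and D against WL, and these comparisons share arrays, so each one's own values are only set side by side. In D against WL 2542 probe sets were called (11.2%), and in FRD against D 148 (0.651%). IAA29 had ratios of 0.435, 0.612 and 1.03 in D blades, that is -0.60 log2 units in D against WL (adjusted p = 0.393) and 4.3 in FRD against D (adjusted p = 5.63e-05). HAT2 had ratios of 0.604, 0.713 and 1.47 in D blades, with -0.32 in D against WL and 2.58 in FRD against D. WES1 stood at 0.37 and 2.60 in these comparisons, IAA30 at 0.70 and 2.91, YUC2 at 0.27 and 1.52, and BIM1 at -0.37 and 1.57. For these 6 genes no D against WL value passed the test and each FRD against D value did (adjusted p up to 0.0125).

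GH3.3 was called in both steps. Its D blades had ratios of 7.5, 9.81 and 28.6, with 2.93 ± 0.82 in D against WL (adjusted p = 0.0342) and 5.33 ± 0.82 in FRD against D (adjusted p = 0.0057). EXPA8 was called in opposite directions. Its D blades had ratios of 0.0565, 0.0755 and 0.0583, below both the FRD and the WL arrays, with -3.88 ± 0.36 in D against WL and 2.34 ± 0.36 in FRD against D (adjusted p = 3.94e-05 and 0.00603).

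Other genes had the following values in these steps. CML38 stood at 4.10 in D against WL and -0.85 in FRD against D, B120 at 3.60 and -0.55, MTPA1 at 3.66 and -0.16, STZ at 2.19 and 0.00, AOP1 at -2.16 and 0.00, and GI at -2.11 and -0.75. AKINBETA1 stood at 1.98 and -0.18, ATG8E at 1.70 and -0.55, and EXPB1 at -2.44 and 0.55. Each of these 9 passed the test in D against WL and none in FRD against D. Neither step passed for CHI (1.08 and 3.02), SNZ (-0.89 and -0.93) or scpl22 (-1.78 and -1.65). The 25S ribosomal RNA control averaged 0.971 ± 0.203 log2 in D blades (SD, n = 3), against 0.339 ± 0.249 in FRD and -0.0826 ± 0.217 in WL blades, and its part in these values was not tested.

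**Figure D4:**
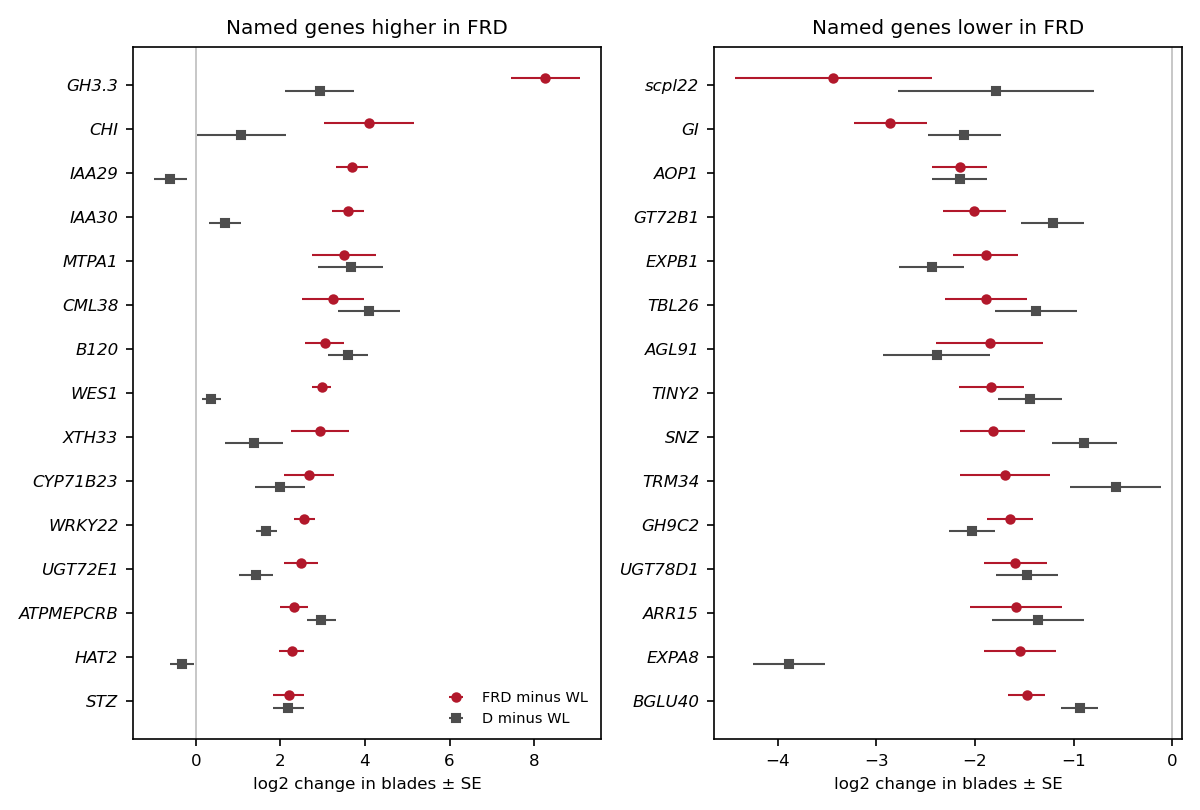
Log2 change in blades (x axis, with the standard error of the limma fit) of the 15 rises and 15 falls named by rule, for FRD minus WL (red circles) and D minus WL (grey squares). IAA29, HAT2 and WES1 lie at 3.70, 2.27 and 2.98 for FRD and at -0.60, -0.32 and 0.37 for D, and EXPA8 is lower in D (-3.88) than in FRD (-1.54).

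The petioles of the same leaves gave a related response to FRD. In petioles 1891 probe sets were called in FRD against WL (8.31%), 1010 higher (4.44%) and 881 lower (3.87%). The 649 probe sets called higher in both tissues are 44.5% of the blade calls and 64.3% of the petiole calls, and the 481 called lower in both are 44.6% and 54.6%. Of the blade calls, 95.7% of the higher ones and 94.3% of the lower ones had the same sign in petioles. No probe set was called higher in blades and lower in petioles, and 1 probe set without a named gene was called lower in blades (-0.60) and higher in petioles (0.63). Probe sets called higher in blades had a median of 0.87 there and 0.53 in petioles, and those called lower had -0.85 and -0.56. Because the blade values chose these probe sets, medians nearer to 0 in petioles are no measure of a weaker response.

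The difference between tissues, blade change minus petiole change, was itself called for 8 probe sets (0.0352%) in limma, 5 with a larger value in blades (0.022%) and 3 with a larger value in petioles (0.0132%), and 1681 (7.39%) had an unadjusted p under 0.05. MGL (AT1G64660), methionine gamma-lyase, which breaks down methionine, had ratios of 1.69, 2.23 and 1.81 in FRD blades and of 1.14, 1 and 0.933 in WL blades. Its change was 0.89 ± 0.23 in blades and 3.48 in petioles, a difference of -2.59 (adjusted p = 0.0223). Its blade call was lost without FRD replicate 2 or 3 or WL replicate 2 or 3 (adjusted p up to 0.0875), and with the 75th percentiles aligned (0.59, adjusted p = 0.081). AT5G52050, a transporter of the detoxification efflux family, stood at 0.05 in blades and 3.73 in petioles, and AT3G55840 at 0.41 and 3.41. On the other side AT5G03230 stood at 1.63 in blades and -0.20 in petioles, AT3G05980 at 1.01 and -2.55, and AT2G23840 at -0.74 and -2.17.

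For the auxin genes the difference between tissues did not pass the test. IAA29 changed by 3.70 in blades and 5.15 in petioles, WES1 by 2.98 and 4.19, HAT2 by 2.27 and 2.94, GH3.3 by 8.26 and 5.75, and IAA30 by 3.61 and 2.58 (adjusted p of the difference 0.329 to 0.795). YUC2 stood at 1.79 in blades and 0.01 in petioles and EXPA8 at -1.54 and 0.23, again without a called difference. The count of 8 was 0 with quantile normalization and 0 with the 12 compared arrays alone, and ran from 1 to 17 when 1 array of either tissue was left out.

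**Figure D5:**
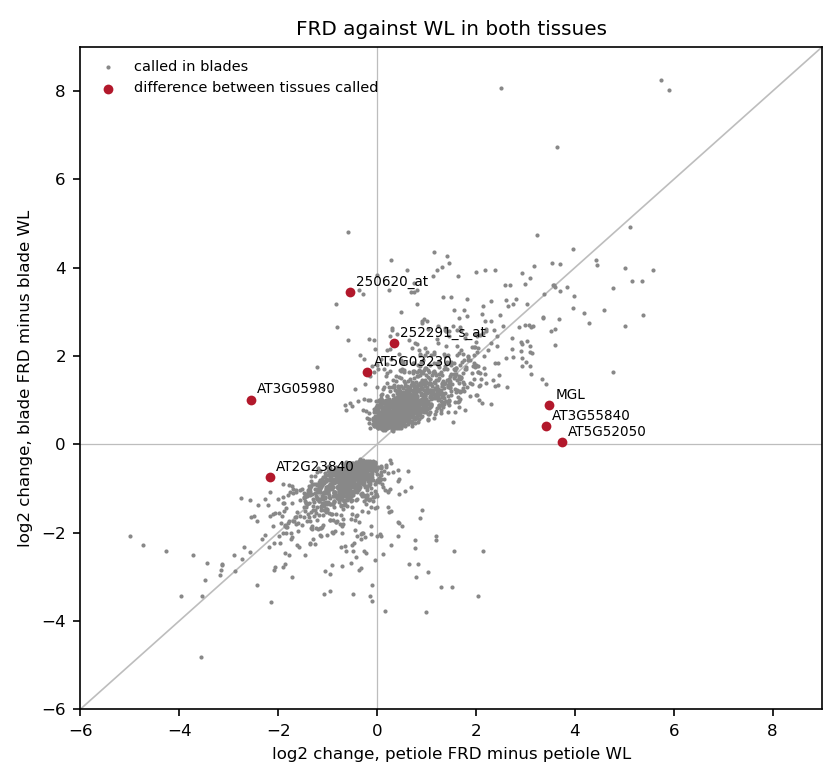
Log2 change, FRD minus WL, in blades (y axis) against petioles (x axis) for the 2537 probe sets called in blades (grey), with the 8 probe sets whose difference between tissues was called in red and named. Of the blade calls 95.7% of the higher and 94.3% of the lower ones share their sign in petioles, and MGL, AT3G55840 and AT5G52050 lie far to the right at small blade values.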

How the data were processed

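RNA from 18 plant samples was measured on Affymetrix Arabidopsis arrays, 3 per group. The deposited values are linear ratios, and because the median of the 3 WL arrays was exactly 1 in 100% of blade probe sets, each was taken as divided by the WL median of its tissue, a reading from the values and not from the labels. How the authors summarized and scaled the arrays before that step was not given in the sources used here. Division drops out of differences within a tissue but removes levels, so depth and signal over background are unknown, and the number of arrays limits the precision. No genome build is named, so no coordinates are given.

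The 64 control probe sets were left out. The fit, in limma 3.58.1 (R 4.3.3), took log2 ratios without a pseudocount, with 1 mean per group (12 residual and 1.459 prior degrees of freedom), and two-sided p-values were adjusted by Benjamini-Hochberg over 22746 probe sets within each comparison. Errors beside log2 changes are standard errors of this fit, and a list median is over its measured genes. The limma steps were tested on simulated data.

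The platform annotation gave 1 gene for 13513 probe sets, of which 13436 matched the RefSeq table (TAIR10.1) and 1580 carry a symbol for 1552 genes. Named genes are up to 15 rises and 15 falls with a symbol and 4 and 4 with a locus code alone, called and without overlap between groups, up to 6 called members per list and up to 5 and 5 tissue differences. The 38 lists hold 483 measured genes, 34 lists have a measured member, and 10 symbols of other genes were removed. Members and lists were chosen with earlier results of these data known. Alternatives are given in the closing section.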

Additional observations from a re-analysis of the deposited data

Results flagged for a closer look

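In 8 probe sets the FRD response differed between blades and petioles by the limma test of the difference itself, and values are blade change minus petiole change in log2 units. The difference was 3.99 and 1.95 for the probe sets without a named gene, 3.56 for AT3G05980, 1.83 for AT5G03230 and 1.43 for AT2G23840. It was -2.59 for MGL, -3.0 for AT3G55840 and -3.69 for AT5G52050. Adjusted p ran from 0.00727 to 0.0439. The call of the probe set at 1.95 remained in all 12 fits without 1 array (adjusted p up to 0.0399). The other 7 were lost in 6 to 11 of these fits (adjusted p up to 0.136), and none of the 8 changed its sign. AT2G23840 was also lost in 6 of 9 other settings, down to 0.20 with ratios floored at their 10th percentile. AT3G05980 was lost in 5 of 9, down to 1.42 with that floor. The petiole FRD ratios of both genes lie below the floor, which limits how large their petiole falls can be. The other 6 were lost in 2 or 3 of the 9. Dependence on single arrays was examined by the fits without 1 array and by array weights.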

How the results depend on the processing

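Of 2537 calls in blades (1458 higher, 1079 lower), quantile normalization left 187 (135 higher, 52 lower), all among the original ones. Aligning the 75th percentiles gave 4643 (682 and 3961), the 6 compared arrays alone 631 (393 and 238) and the 9 blade arrays alone 1308 (777 and 531). Leaving out 1 array gave 1690 to 2107 calls, 993 to 1246 higher and 681 to 861 lower. Aligned medians, a floor or pseudocount at the 10th percentile of all ratios (0.553), a variance trend and array weights gave 2492 to 3023. The samples share only a replicate number: same-numbered FRD and WL arrays correlated at 0.026, 0.0301 and 0.121 in their deviations, and the replicate block gave 3386 calls (1861 and 1525). All 38 named genes kept their sign in every setting, 26 stayed called without any single array, and 11 under all the other alternatives. Calls lost were 24 with quantile normalization, 16 with the 6 arrays, 10 with the 9 arrays, 6 with the floor, 5 with the pseudocount and 4 with the trend. For the 8 tissue differences the counts were 0 with quantile normalization or the 12 compared arrays alone, 18 with the floor, 38 with the pseudocount, 34 with array weights and 16 with the replicate block, and 1 to 17 without 1 array. The 12-array fit and leaving out petiole arrays were chosen after seeing the data, and the 6-array and 9-array fits hold no petioles and give no tissue difference. Fewer arrays leave fewer residual degrees of freedom. The floor and the pseudocount limit how large a fall can be. The variance trend runs over mean log2 ratios and not over signal intensity. Quantile normalization and the aligned 75th percentiles act on the narrower distribution that division by the WL median gives the WL arrays. The part of this narrowing in their counts was not tested, nor were other causes. Ratios carry no level, so a filter on dim probe sets was not possible.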

Other observations

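Further gene groups held calls in FRD blades. They were put together from symbols after their values had been seen, so their counts are a description and carry no test, to be read against 11.2% of all probe sets called. Of 16 genes with the symbols CRR, OTP, PIFI or CFM, which name factors of the plastid NADH dehydrogenase-like complex and of RNA editing and splicing in plastids or mitochondria, 5 were called lower and none higher, with a median of -0.67 (-0.47 with quantile normalization and -0.98 with the 75th percentiles aligned). CRR21, an RNA editing factor, had ratios of 0.509, 0.556 and 0.425 in FRD blades, against 1.13, 1 and 0.881 in WL blades, and fell by 1.02 ± 0.20 (limma adjusted p = 0.00446). CRR42 fell by 1.02 ± 0.22, the editing factor OTP84 by 0.97 ± 0.14, PIFI by 0.74 ± 0.13 and CFM3B by 0.67 ± 0.18. None of the 69 plastid-encoded genes was called. CFM3B was lost without FRD replicate 1 or 3 or WL replicate 1 or 3 (adjusted p up to 0.109).

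Of 12 ubiquitin-conjugating enzymes, which pass ubiquitin to proteins marked for breakdown, 4 were called higher and none lower, with a median of 0.20 that was -0.11 with the 75th percentiles aligned. UBC16 had ratios of 2.78, 2.31 and 2.21 in FRD blades, against 1, 1.34 and 0.987 in WL blades, and rose by 1.14 ± 0.23 (adjusted p = 0.00636), UBC19 rose by 0.78 ± 0.18, UBC22 by 0.53 ± 0.13 and UBC32 by 0.45 ± 0.09. Of 11 genes of the ESCRT machinery, which sorts membrane proteins to the vacuole, ELC rose by 0.82 ± 0.13, VPS60.1 by 0.72 ± 0.15 and VPS2.1 by 0.44 ± 0.11. ELC had ratios of 1.76, 1.77 and 1.72 in FRD blades and of 1.05, 0.921 and 1 in WL blades. Of 4 genes of purine breakdown, AAH rose by 1.11 ± 0.27 and ALN, allantoinase, by 0.79 ± 0.19. With the 75th percentiles aligned UBC16 and ELC alone of these 9 genes were called. Without 1 array, UBC19 was lost without FRD replicate 1 or WL replicate 1, UBC22 without FRD replicate 1 or 2 or WL replicate 2, VPS2.1 without FRD replicate 1 or WL replicate 1, AAH without FRD replicate 1 or WL replicate 3 and ALN without FRD replicate 3 or WL replicate 2 or 3 (adjusted p up to 0.0926).

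Of 29 serine carboxypeptidase-like genes 5 were called lower and none higher, with a median of -0.08 (17.2% called). Beside scpl22, scpl20 fell by 0.93 ± 0.19, SCPL27 by 0.80 ± 0.24, scpl29 by 0.63 ± 0.12 and scpl48 by 0.49 ± 0.13. SCPL27 was lost without FRD replicate 1 or 3 or WL replicate 1 or 3, and scpl48 without FRD replicate 1 or 2 or WL replicate 2 or 3 (adjusted p up to 0.164 and 0.111). Of 6 CLE signalling peptides CLE26 and CLE41 were called lower at -0.93 ± 0.25 and -0.70 ± 0.17, each lost in 4 of the fits without 1 array (adjusted p up to 0.0873 and 0.0765). The glutathione transferase GSTU27, the single call among 13 (7.69%), fell by 1.25 ± 0.21 (adjusted p = 0.00196).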
